A study of Mus musculus with 2 samples.

Results

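The Wnt ligands, their Frizzled receptors and the secreted proteins that modulate them were followed as 50 named genes in RNA of the facial prominences of the mouse embryo. The members were chosen by name and matched by gene identifier to a GENCODE symbol. All 50 were found, among 43346 gene rows. They comprised 17 ligand genes, 3 genes for making or inactivating the ligand, 10 Frizzled receptors, 2 Lrp co-receptors, 6 Wnt-binding antagonists, 4 Dickkopf genes, 4 R-spondins, 3 Lgr receptors of the R-spondins, and the target gene Axin2. Wnt5a and Wnt11, ligands of the planar polarity branch, are not among the members and are given only as a scale.

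Facial prominence tissue, the swellings around the embryonic mouth that form the nose, jaws and palate, was sampled at embryonic day 13.5 (E13.5). There were 2 libraries in 1 group, both from tissue labelled healthy, of strain B6NCrl with male and female embryos pooled. Each library started from 10 ng of RNA longer than 200 nt. Replicates 1 and 2 are biological replicates by their labels, and each has its own biosample identifier while the donor identifier is the same, so nothing there separates the spread between embryo pools from the spread between libraries. The labels name no treatment and no mutation, so every value is a level in this 1 kind of tissue, and no p-value is given.

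Wnt proteins are lipid-modified secreted signals. They bind a Frizzled receptor and, in the branch that stabilises beta-catenin, an Lrp co-receptor, and beta-catenin then enters the nucleus and works with factors of the Tcf and Lef family. Secreted frizzled-related proteins and Wif1 bind the ligand itself, Dickkopf proteins bind the Lrp co-receptors, and R-spondins acting through Lgr receptors keep Frizzled receptors at the cell surface. In the face this pathway is known for its part in the outgrowth and fusion of the prominences and for signalling between the surface epithelium and the mesenchyme beneath it.

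Gene rows held 28542452 expected counts in replicate 1 and 22719352 in replicate 2. The tissue label was checked against marker lists. All 5 mesenchyme, 6 epithelium, 5 cartilage and 5 bone markers reached 1 TPM (transcripts per 1000000, a level per transcript length) in both libraries. So did all 5 markers each of muscle, neurons, endothelium, erythroid cells and macrophages. Detection alone therefore does not single out facial tissue. The 5 erythroid markers summed to 13667 TPM in replicate 1 and 18012 TPM in replicate 2. Replicate 2 stood apart in 2 lists. The summed level of 6 liver markers was 4.10 TPM in replicate 1 and 262.9 TPM in replicate 2, and that of 6 heart markers was 2.64 and 49.80 TPM, with Myl2 at 0 in replicate 1. The deposited posterior standard deviation of the gene count was 0 in both libraries for 45 of the 50 members and at most 7.24 reads, so few reads were shared with other genes. Exons of 7 members overlapped an annotated gene on the opposite strand (Wnt7b, Notum, Fzd5, Fzd6, Sfrp2, Rspo3 and Axin2), and the sources used here do not say whether the counting used strand. The overlapping gene with the highest deposited count, Gm26771 beside Sfrp2, held 143 and 151 counts against 9784 and 9363 for Sfrp2.

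Of the 50 members, 44 (88.0%) were detected, meaning at 1 TPM or more in both libraries, against 60.9% of the 21474 protein-coding genes. The median over members of the mean level was 9.30 TPM, beside 4.68 TPM over all protein-coding genes. Over the 13078 protein-coding genes detected by the same rule the median was 18.91 TPM, so the members' median lay below that of detected genes. In both libraries 12 members were at 20 TPM or more. The share of all protein-coding genes at that level in both was not counted. For scale, the pathway gene Ror2, at a mean of 20.25 TPM, ranked 6284 among the 21474, so this level is common. The summed level of all members was 1034 ± 9.77 TPM (SD, n = 2). Sfrp2 alone made up 23.8% of that sum in replicate 1 and 29.5% in replicate 2. Spike-in control RNA took 13.42% of the TPM total in replicate 1 and 9.68% in replicate 2. Equal deposited TPM in the 2 libraries is therefore not an equal share of the RNA of genes, and the SD of a summed level includes that shift. Because this is bulk tissue, fewer cells of a type and less RNA per cell cannot be told apart in any level or difference given here.

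**Figure D1:**
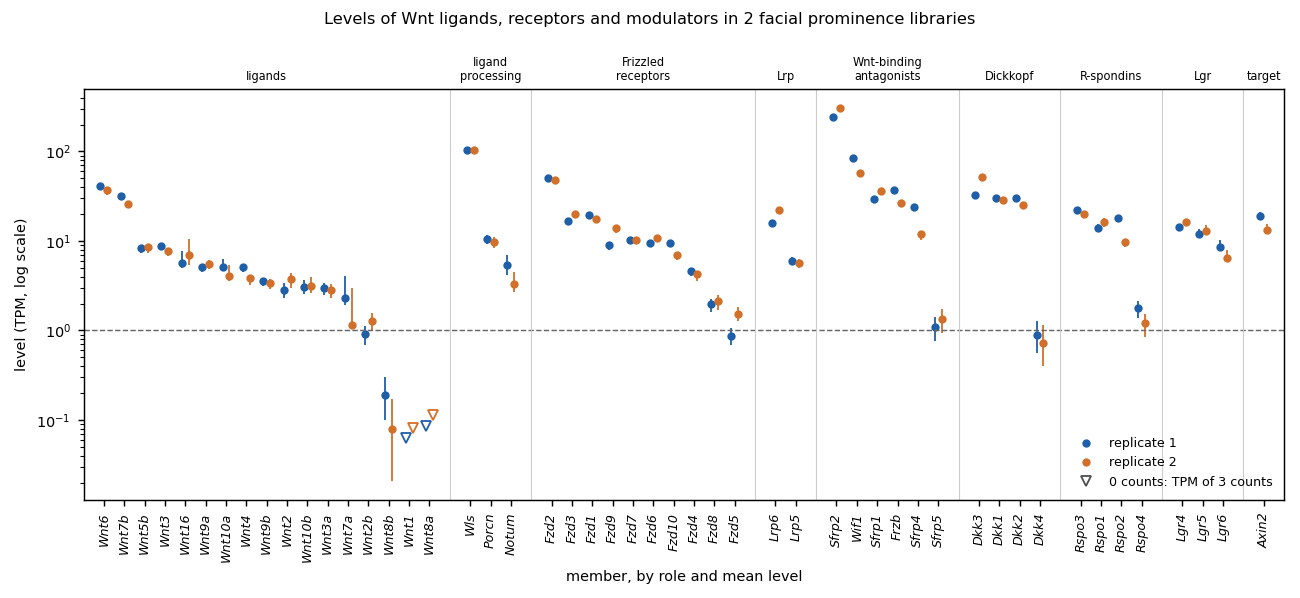
Level of each member in TPM on a log axis, in replicate 1 and replicate 2, grouped by role. Vertical lines are the deposited 95% credibility intervals, open triangles mark genes with 0 counts at the TPM that 3 counts would give, and the dashed line is 1 TPM. Sfrp2, Wls and Wif1 stood highest, and Wnt1 and Wnt8a had no counts.

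Sequences are shown for the 3 members in which the transcript tables bear on a particular exon or start site, described further on. Wnt5b has 3 annotated start regions spread over 94961 bases, and the 250 bases before each are given from the RefSeq table (GRCm38.p6, minus strand, 5′ to 3′), with any match to the 4 motifs searched in capitals. They lie at chr6:119544348-119544597, chr6:119467212-119467461 and chr6:119449387-119449636.
Wnt5b start 1: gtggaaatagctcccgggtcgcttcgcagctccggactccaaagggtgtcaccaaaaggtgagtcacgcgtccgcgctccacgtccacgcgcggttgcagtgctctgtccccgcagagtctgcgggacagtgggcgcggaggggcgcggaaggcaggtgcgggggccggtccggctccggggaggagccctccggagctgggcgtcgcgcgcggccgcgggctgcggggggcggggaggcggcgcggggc
Wnt5b start 2: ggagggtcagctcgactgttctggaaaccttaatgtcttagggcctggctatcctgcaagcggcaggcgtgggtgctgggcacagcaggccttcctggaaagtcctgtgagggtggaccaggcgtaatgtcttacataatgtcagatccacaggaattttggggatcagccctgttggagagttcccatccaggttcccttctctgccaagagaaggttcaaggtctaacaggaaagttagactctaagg
Wnt5b start 3: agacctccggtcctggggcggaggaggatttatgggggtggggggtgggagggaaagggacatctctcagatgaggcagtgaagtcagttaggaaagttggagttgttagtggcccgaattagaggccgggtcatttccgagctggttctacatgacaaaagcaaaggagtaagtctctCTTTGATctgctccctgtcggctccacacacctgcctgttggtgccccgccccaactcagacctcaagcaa
Lgr4 has a coding exon of 72 bases (exon 2 of Lgr4-201, chr2:109970692-109970763, GRCm38, plus strand) that Lgr4-202 lacks. Its length is a multiple of 3 and corresponds to 24 residues in the extracellular part of the receptor. Porcn has 2 short coding exons of 18 bases (chrX:8203026-8203043) and 15 bases (chrX:8201658-8201672), both on the minus strand, that are used or skipped in frame.
Lgr4 exon 2: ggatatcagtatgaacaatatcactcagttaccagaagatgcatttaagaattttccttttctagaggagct
Porcn 18-base exon: caagaaacgcaaagccag
Porcn 15-base exon: gggcaccatggtaag
The motifs were 3 forms of the Tcf/Lef recognition sequence, which are the form CTTTGAT, the form CTTTGAA and the form CTTTGTT, together with TATAAA, the core of the TATA box. Each was searched on both strands in the 250 bases before the start. The 3 Tcf/Lef forms share their first 5 letters.

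The RefSeq promoter table held 32 of the 50 members, with 34 start windows in all. At least 1 of the 3 Tcf/Lef forms was found in 3 windows (8.82%), against 12.0% of all 32851 windows of this length. The 3 windows belonged to Dkk1, with CTTTGAA beginning 117 bases and CTTTGTT 98 bases before the start, to Fzd7, with CTTTGTT on the other strand 130 bases before it, and to the third Wnt5b start, with CTTTGAT 71 bases before it. TATAAA was found in 4 windows (11.8%), against 12.4% of all windows. The match nearest its start was in Dkk2, 32 bases before it, and Dkk1 had one 54 bases before it. The median GC content of the members' windows was 66.8%, beside 52.4% over all windows, and 32 of the 34 were above that median. It ran from 48.4% at Wnt8b to 87.6% at Wnt3a. These are matches of letters, and no binding was measured.

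The ligand genes were led by Wnt6 and Wnt7b, both known in surface epithelia. Wnt6 (chromosome 1, 74771892 to 74785322) was at 41.66 TPM in replicate 1 and 37.49 TPM in replicate 2. Wnt7b was at 32.13 and 25.62 TPM. Together they made up 57.7% and 54.6% of the summed level of the 17 ligands, which was 121.8 ± 8.74 TPM (SD, n = 2). No other ligand among the members reached 10 TPM. For scale, Wnt5a was at 210.27 and 248.60 TPM and Wnt11 at 9.11 and 8.19 TPM, so Wnt5a alone exceeded the sum of all 17.

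A group of ligands followed at between 1 and 9 TPM. Wnt5b, a relative of Wnt5a, was at 8.35 and 8.58 TPM, and Wnt3, which acts through beta-catenin, at 8.83 and 7.71 TPM. Wnt16, known for its effect on cortical bone, was at 5.72 and 7.03 TPM. Wnt9a was at 5.17 and 5.59 TPM, Wnt10a, needed for tooth formation, at 5.15 and 4.11 TPM, and Wnt4 at 5.06 and 3.82 TPM. Wnt9b, whose loss in mice gives cleft lip, was at 3.61 and 3.41 TPM. Between them and the least abundant ligands lay Wnt2 at 2.83 and 3.73 TPM, Wnt10b at 3.07 and 3.15 TPM, Wnt3a at 2.98 and 2.86 TPM, and Wnt7a, which patterns the dorsal limb, at 2.31 and 1.15 TPM. Neighbours in this order were mostly not resolved. Of the 16 neighbouring pairs in the ranking of ligands, 3 were apart, meaning that the deposited 95% credibility intervals of the 2 genes did not overlap in either library and the order was the same in both. They were Wnt6 over Wnt7b, Wnt7b over Wnt5b, and Wnt2b over Wnt8b.

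4 ligands were not detected in both libraries. Wnt2b was at 0.91 TPM in replicate 1 and 1.28 TPM in replicate 2. Wnt8b, a ligand of the forebrain, held 13 and 4 counts, or 0.19 and 0.08 TPM. Wnt1, known from the midbrain and the dorsal neural tube, and Wnt8a, known from the gastrulating embryo, held 0 counts in both libraries. A count of 0 allows up to 3 counts, which is 0.0622 TPM for Wnt1 in replicate 1 and 0.0816 TPM in replicate 2, and 0.0861 and 0.113 TPM for Wnt8a. These limits cover counting error only.

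4 pairs of ligand genes lie within 100 kb of each other, and in each the neighbours were at different levels. Wnt6 and Wnt10a lie 6.19 kb apart on chromosome 1 in the same direction, and Wnt6 was 8.09-fold higher in replicate 1 and 9.12-fold higher in replicate 2. Wnt1 and Wnt10b lie 11.7 kb apart on chromosome 15, with Wnt10b at about 3 TPM and Wnt1 at 0 counts. On chromosome 11 Wnt3a and Wnt9a lie 16.2 kb apart, with Wnt9a 1.73-fold and 1.95-fold higher. Wnt3 and Wnt9b lie 24.3 kb apart on the same chromosome, and the level of Wnt9b was 0.409 and 0.442 times that of Wnt3. All 4 pairs were apart in both libraries.

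Related ligand genes also differed. Wnt7b was 13.9-fold and 22.3-fold higher than Wnt7a, Wnt2 was 3.11-fold and 2.91-fold higher than Wnt2b, and Wnt3 was 2.96-fold and 2.70-fold higher than Wnt3a. Wnt9a and Wnt9b were apart by 1.43-fold and 1.64-fold. Wnt10a was 1.68-fold and 1.30-fold higher than Wnt10b, with intervals that overlapped in replicate 2.

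Of the genes that handle the ligand, Wls is the carrier that takes lipid-modified Wnt to the cell surface. Its deposited TPM was nearly the same in both libraries, 103.53 and 103.59, though spike-ins took a larger part of replicate 1. By the scaled counts used further on, Wls was at a log2 ratio of -0.10 (interval -0.15 to -0.05), replicate 2 over replicate 1. It ranked 1398 among the 21474 protein-coding genes by mean level. Porcn, the enzyme that attaches the lipid, was at 10.64 and 9.79 TPM, so Wls was 9.73-fold and 10.6-fold higher. Notum, the secreted enzyme that removes the lipid, was at 5.41 and 3.31 TPM. All 3 were apart from one another in both libraries.

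The 10 Frizzled receptors summed to 134.3 ± 2.39 TPM (SD, n = 2), beside 121.8 TPM for the 17 ligands. Fzd2 (chromosome 11), the highest, was at 50.96 and 48.45 TPM and made up 38.4% and 35.6% of that sum. Its close relatives Fzd1 and Fzd7 were lower, Fzd1 at 19.35 and 17.42 TPM and Fzd7 at 10.31 and 10.28 TPM. Fzd2 was 4.94-fold and 4.71-fold higher than Fzd7. Fzd3 and Fzd6, which act in planar polarity, were at 16.68 and 20.14 TPM and at 9.48 and 10.77 TPM, apart by 1.76-fold and 1.87-fold.

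The other Frizzled genes were all below Fzd3 and Fzd1 by mean level. Fzd9 was at 8.92 and 13.93 TPM, Fzd10 at 9.45 and 7.06 TPM, and Fzd4, known from the retinal vasculature, at 4.59 and 4.24 TPM. Fzd9 and Fzd10 exchanged their order between the libraries, and Fzd9 was above Fzd7 and Fzd6 in replicate 2 and below both in replicate 1. In replicate 1 the interval of Fzd9 overlapped those of Fzd10, Fzd7 and Fzd6, so its place there was not resolved. Fzd3 and Fzd1 also exchanged their order, with intervals that did not overlap in either library. Fzd8 was at 1.98 and 2.14 TPM. Fzd5, known from the eye, was at 0.86 TPM in replicate 1 and 1.53 TPM in replicate 2 and was the only Frizzled gene not detected in both. Of the 9 neighbouring pairs in the order of Frizzled levels, 4 were apart, namely Fzd2 over Fzd3, Fzd1 over Fzd9, Fzd10 over Fzd4, and Fzd4 over Fzd8.

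Of the Lrp co-receptors, Lrp6, whose loss in mice gives facial clefts, was at 15.97 and 22.00 TPM and Lrp5 at 5.94 and 5.64 TPM. The level of Lrp5 was 0.372 and 0.256 times that of Lrp6, and the pair was apart in both libraries.

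The 6 Wnt-binding antagonists had the highest summed level of any role, 430.7 ± 14.5 TPM (SD, n = 2). Sfrp2 (chromosome 3) was at 244.66 and 307.02 TPM, the highest of the 50 members and 448th among protein-coding genes. Wif1 (chromosome 10), a secreted Wnt-binding protein known from cartilage and the nervous system, was at 84.52 and 57.56 TPM. Sfrp1 was at 29.23 and 36.17 TPM and Frzb, a relative first described in cartilage, at 37.20 and 26.82 TPM, and these 2 exchanged their order between the libraries. Sfrp4, known for its part in bone, was at 23.71 and 12.01 TPM. Sfrp5 was at 1.08 and 1.34 TPM. Sfrp2 was higher than Sfrp1 by nearly the same factor in both libraries, with a log2 ratio of Sfrp1 to Sfrp2 of -3.07 in replicate 1 and -3.09 in replicate 2. Sfrp1 was 27.1-fold and 27.0-fold higher than Sfrp5, which rested on 41 and 39 counts.

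**Figure D2:**
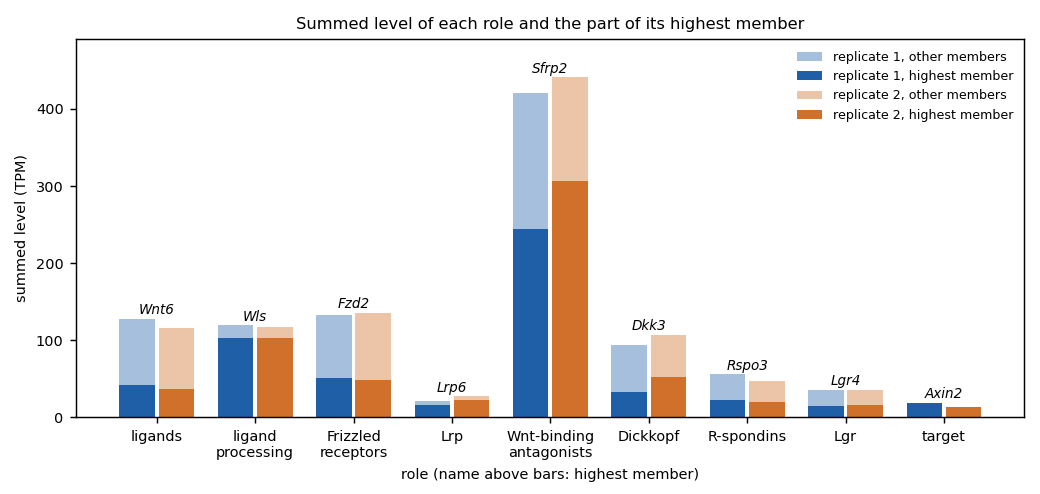
Summed TPM of the members of each role in replicate 1 and replicate 2, with the part of the role's highest member in the darker shade. The Wnt-binding antagonists, led by Sfrp2, summed to 420.4 and 440.9 TPM, against 128.0 and 115.6 TPM for the 17 ligands.

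Of the 4 Dickkopf genes 3 exceeded 20 TPM in each library. Dkk1, an Lrp antagonist needed for the formation of the head, was at 30.20 and 28.98 TPM. Dkk2 was at 30.22 and 25.23 TPM. Dkk3, a divergent member of the family, was at 32.98 and 52.22 TPM. Dkk4, known from skin placodes, was at 0.90 and 0.72 TPM, with 23 and 14 counts, and was not detected. The level of Dkk2 was 0.916 and 0.483 times that of Dkk3, and this pair was apart in both libraries. The intervals of Dkk1 and Dkk2 overlapped in replicate 1 and did not in replicate 2.

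Of the R-spondins, Rspo3 was at 22.35 and 20.23 TPM and Rspo1 at 14.10 and 16.34 TPM. Rspo2, whose loss in mice gives defects of face and limb, was at 17.87 and 9.71 TPM. Rspo1 and Rspo2 exchanged their order between the libraries, while both were below Rspo3 in each. Rspo4, known from the nail, was at 1.77 and 1.20 TPM. Their receptors were closer to one another, Lgr4 at 14.49 and 16.38 TPM, Lgr5, also a marker of several kinds of stem cell, at 11.96 and 12.94 TPM, and Lgr6 at 8.55 and 6.42 TPM. Lgr5 was apart from Lgr6 in both libraries, and Lgr4 from Lgr5 only in replicate 2.

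Axin2, a scaffold of the complex that degrades beta-catenin and a widely used target gene of that branch, was at 18.88 and 13.33 TPM.

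**Figure D3:**
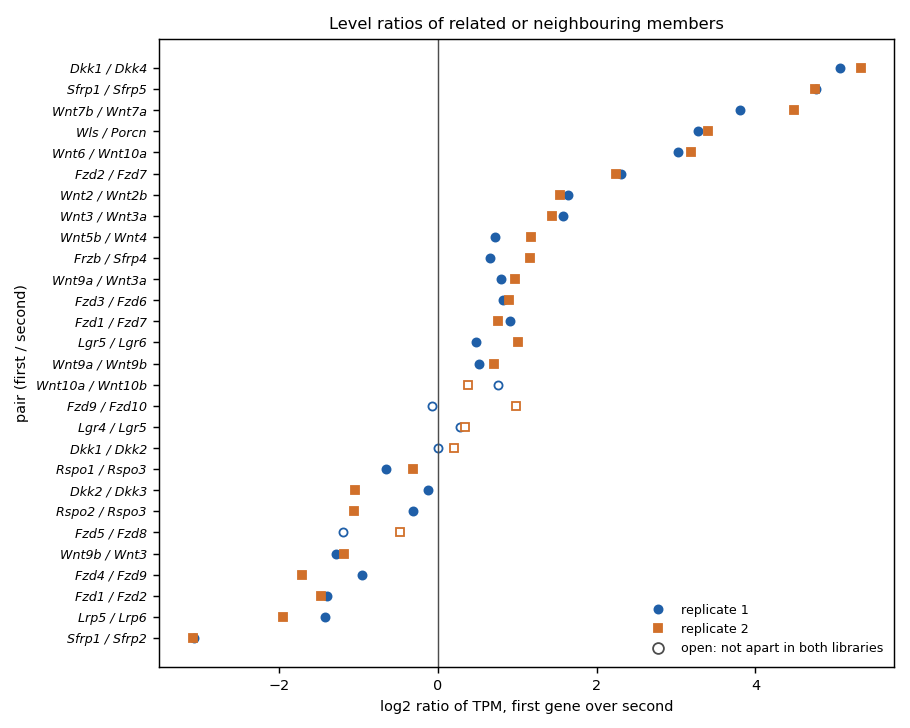
Log2 ratio of TPM for 28 pairs of related or neighbouring members, in replicate 1 (circles) and replicate 2 (squares). Filled symbols mark the pairs that were apart in both libraries and open symbols those that were not. Sfrp1 to Sfrp2 was at -3.07 and -3.09, and Dkk1 to Dkk4 at 5.07 and 5.33.

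Over the 30 pairs of relatives or genome neighbours, 24 were apart in both libraries. These pairs were chosen with earlier results of these data known. The share of other gene pairs apart by the same rule was not counted, so 24 of 30 has no background beside it. The 6 that were not were Wnt8b with Wnt8a, Wnt10a with Wnt10b, Fzd5 with Fzd8, Fzd9 with Fzd10, Dkk1 with Dkk2, and Lgr4 with Lgr5. For 28 of the pairs both genes had counts and a ratio could be formed. The mean log2 ratio exceeded 3 times its SD over the 2 libraries in 18 of them, and 17 of these were among the 24.

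The 2 libraries were then compared gene by gene, as the ratio of counts in replicate 2 to replicate 1 after TMM scaling (a scaling that sets the bulk of genes to no difference), for gene rows whose expected count averaged 10 or more. Of the 50 members 47 passed this filter. Only Sfrp4 differed by over 2-fold. It held 831 counts in replicate 1 and 321 in replicate 2, a log2 ratio of -1.08 with an exact Clopper-Pearson 95% interval of -1.27 to -0.89. Among all 17707 gene rows that passed the filter, 1.42% were over 2-fold lower in replicate 2 and 4.85% over 2-fold higher. The rows higher in replicate 2 included all 6 liver and all 6 heart markers. With 47 members, 1 lower and 0 higher are counts too small to tell apart from these shares. Rspo2 lay just inside the limit, with 1219 and 505 counts and a log2 ratio of -0.98 (interval -1.13 to -0.83). Wnt7a, with 131 and 57 counts, was at -0.90 (interval -1.38 to -0.45).

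With Sfrp4 included, the counting interval lay below 0 for 22 of the 47 members and above 0 for 7, against 21.8% and 17.6% of all gene rows that passed the filter. How often an interval leaves out 0 also depends on the number of counts. By sign alone 31 members were lower and 16 higher in replicate 2, with a median log2 ratio of -0.17, beside -0.02 over all those gene rows. At 1.5-fold 6 of the 47 were lower and 1 higher, against 3.99% and 8.76% of all gene rows. The 6 were Sfrp4, Rspo2, Wnt7a, Rspo4, Wif1 at -0.64 and Frzb at -0.62, and the 1 was Fzd5. Sfrp2 and Sfrp1 were at 0.23 and 0.21. The members higher in replicate 2 by the widest margin were Fzd5 at 0.74 (117 and 160 counts), Dkk3 at 0.56 (2273 and 2744 counts) and Fzd9 at 0.54 (414 and 493 counts). Axin2 was at -0.51, Wnt6 at -0.37 and Wls at -0.10. Scaling by the spike-ins moved the median of all gene rows to 0.54. On that scale 6 members were lower by sign and 41 higher in replicate 2, in place of 31 and 16, Sfrp4 was at -0.52 and no longer past 2-fold, and Fzd5, Dkk3 and Fzd9 were past it. The directions above are therefore relative to the bulk of genes. These intervals cover counting error only, and 2 libraries of 1 group give no test of a difference.

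Marker lists differed between the same libraries. Beside the liver and heart lists, the summed level of 5 bone markers was 1385 TPM in replicate 1 and 1133 TPM in replicate 2, with none at 0 and Ibsp at a log2 ratio of -0.77. That of 5 cartilage markers was 421.0 and 562.2 TPM. The 7 forebrain and eye markers summed to 23.32 and 30.37 TPM, with 3 of 7 detected in both libraries, none at 0, Pax6 at 1.18 and 2.51 TPM and Six3 at 3.37 and 6.39 TPM. The part of any of these in the differences of Sfrp4, Wif1, Frzb, Rspo2, Dkk3, Fzd9 and Fzd5 was not tested.

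**Figure D4:**
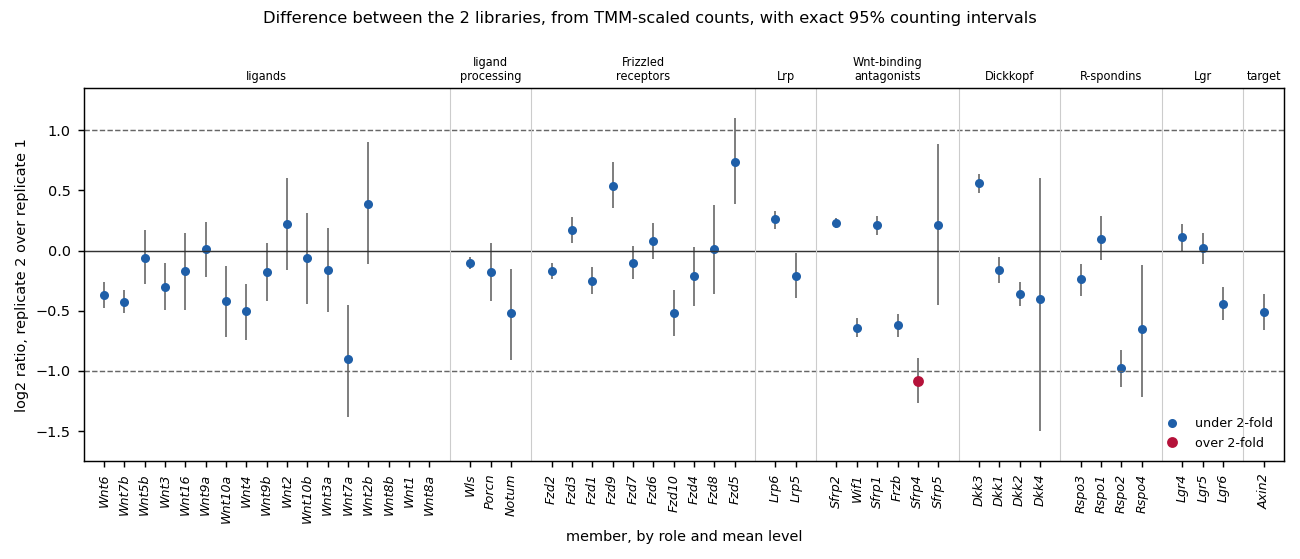
Log2 ratio of TMM-scaled counts, replicate 2 over replicate 1, for the 47 members whose expected count averaged 10 or more, grouped by role. Vertical lines are exact 95% counting intervals and dashed lines mark 2-fold. Sfrp4 at -1.08 was the only point past them, and Wnt8b, Wnt1 and Wnt8a have no point because their counts were too low.

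Transcript shares were read for 18 members, those with over 1 annotated transcript whose gene reached 5 TPM in each library. The same transcript led in both libraries in 17 of the 18 (94.4%), against 91.7% of the 7955 genes that met the same condition. The leading transcript took over 90% on average in 8 of them, namely Wnt7b, Wnt9a, Fzd3, Lrp6, Sfrp2, Frzb, Rspo1 and Lgr6. Sfrp2-201 took 99.2% in each library. In 13 of the 18 the credibility interval of the leading transcript lay above those of all other transcripts of the gene in both libraries. The 5 in which it did not were Wnt5b, Wnt16, Porcn, Fzd6 and Lgr4. For the share over 90% and for the clear intervals, the same counts over all genes were not made. Whether 8 or 13 of 18 is usual is therefore not known.

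Lgr4 was the member whose leading transcript changed. Lgr4-201, which holds the 72-base exon printed above, took 54.7% in replicate 1 and 36.4% in replicate 2, and Lgr4-202, which skips it, took 40.4% and 61.5%. The intervals of these transcripts overlapped in both libraries (3.93 to 9.87 TPM for Lgr4-201 and 3.61 to 9.63 TPM for Lgr4-202 in replicate 1), so the change of order was within the deposited error. Both forms had an interval whose lower bound was above 3 TPM in each library.

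Porcn-203, without either short exon, led with 49.1% and 40.9%. Porcn-202, which has the 18-base exon alone, was at 7.05% and 7.15%, and Porcn-201, with both, at 0% and 7.76%. Porcn-204, with the 15-base exon alone, had 0 counts in both libraries. The remaining 43.9% and 44.2% fell to other models. Porcn-206, a short model that ends before these exons, was at 21.6% and 18.3%. Porcn-207, at 11.6% and 13.0%, and Porcn-205, at 10.7% and 13.0%, have neither annotated as an exon with these bounds. In replicate 2 the interval of Porcn-203 (0.544 to 4.84 TPM) overlapped those of Porcn-201 and Porcn-202, so these shares are weakly determined.

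For Wnt5b, transcripts from the first start region (Wnt5b-203 and Wnt5b-204) made up 65.1% and 70.4% and Wnt5b-202, from the second start 77.1 kb further on, 34.9% and 29.6%. Wnt5b-201, from the third start, whose window holds the CTTTGAT match, had 0 counts in both libraries. Its upper credibility bounds were 1.82 and 1.54 TPM. The interval of Wnt5b-202 reached down to 0.00113 TPM in replicate 2, so use of the second start is not firmly shown there. The window of the first start had a GC content of 75.2%, against 53.2% for the second and 55.6% for the third.

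Among the other members with a divided output, Axin2-201 led with 44.2% and 45.5%, and Wnt16-201 with 62.2% and 45.6%. Wnt16-204, a model of 229 nt, took 21.3% in replicate 2 from 3.14 counts. Every transcript's effective length was its length minus 99 nt, so TPM of such short models rests on few reads.

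**Figure D5:**
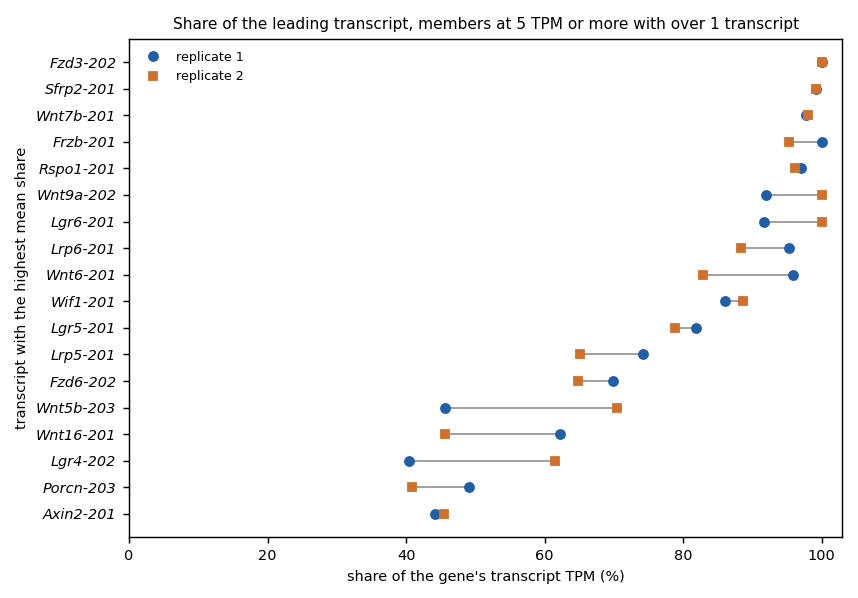
Share of each gene's transcript TPM taken by the transcript with the highest mean share, for 18 members, in replicate 1 (circles) and replicate 2 (squares). Fzd3-202 and Sfrp2-201 lie at or near 100% in both libraries, and Wnt5b-203, Lgr4-202 and Wnt16-201 moved most between them.

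The other genes of the pathway were read from lists of intracellular parts, surface proteins, target genes and the ligands Wnt5a and Wnt11. Of these 40 genes, 39 were detected and none differed by over 2-fold between the libraries, with log2 ratios from -0.48 to 0.34. Beta-catenin (Ctnnb1), at 470.09 and 483.36 TPM, the kinase Csnk1a1, at 216.72 and 236.10 TPM, and Tcf7l2, at 105.36 and 120.64 TPM, were highest of the 18 intracellular genes, all of which were detected. Of the 14 surface genes 13 were detected, led by the glypican Gpc3 at 557.02 and 587.47 TPM, Sostdc1, an antagonist of Wnt and Bmp signals, at 154.45 and 140.89 TPM, and Ptk7 at 109.98 and 113.14 TPM. The exception was Sost, the bone-cell antagonist, at 0.31 and 0.32 TPM. All 11 target genes were detected, led by Lef1 at 103.36 and 92.06 TPM, Ccnd1 at 92.83 and 101.64 TPM, and Myc at 64.72 and 70.24 TPM.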

How the data were processed

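Total RNA-seq of 2 facial prominence libraries was analysed from the gene and transcript tables. Per the labels, RNA was extracted by the Ambion mirVana method. The members, the gene lists and the pairs were chosen with earlier results of these data known. Per the file headers, the deposited expected counts are estimated reads per feature, and TPM as deposited is an abundance relative to every row of the table, so spike-ins count in its total. FPKM, as deposited, scales fragments by length and by library total. The bounds of the 95% credibility interval were deposited as a signal in TPM units and belong to the posterior mean, so a deposited TPM can lie just outside them. The deposited posterior standard deviations of counts were used as a score. The deposited notes name mm10 and GENCODE M4. Aligner, quantifier and strandedness are not given in the sources used here.

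Symbols, exons and coordinates came from GENCODE M21 (GRCm38, the same assembly) by gene identifier without version. Number-only rows, spike-ins and phiX stayed out of library sizes. Spike-ins took 6.27% and 4.45% of expected counts in replicates 1 and 2, and 13.42% and 9.68% of the TPM total. Expected counts were rounded for TMM in edgeR 4.0.16 (R 4.3.3), with a prior count of 1. DESeq2 1.42.0 size factors were an alternative. Intervals of ratios are exact Clopper-Pearson 95% intervals (scipy 1.17.1). The scaling and the log2 ratio between libraries were tested on simulated counts, and the other steps were not. No paired analysis applies to 1 group. Named were members at 20 TPM or more on average, or highest in their role, with the others given briefly, the 3 highest genes of each pathway list, members past 2-fold, and members whose leading transcript changed. The remaining names, such as markers and members near a limit, were chosen after their values were seen.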

Additional observations from a re-analysis of the deposited data

How the results depend on the processing

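With 44 members detected in both libraries at 1 TPM, the count was 47 at 0.5 TPM, 32 at 5 TPM, 45 with TPM over gene rows only, 44 with posterior mean TPM and 41 with FPKM of 1 or more, and 44 to 46 with 1 library left out. The number of pairs apart, 24, was 27 without replicate 1 and 27 without replicate 2, and 18 by a ratio over 3 times its SD. No pair that was apart changed its mean direction when counts were not divided by length. In replicate 1 alone such counts did reverse the order in some of them. Log2 ratios there were -0.19 for Wnt5b to Wnt4 and 0.17 for Rspo2 to Rspo3. They were -0.10 for Lgr5 to Lgr6 and 0.02 for Dkk2 to Dkk3. The mean for Wnt5b to Wnt4 fell from 0.95 to 0.03. The single member past 2-fold between libraries, Sfrp4, was also the single one with DESeq2 size factors, gene-row totals, a prior count of 5 or a mean count of 100 or more. Without the filter on counts there were 2 (Wnt8b added), and at 1.5-fold 7, of which 6 were lower in replicate 2 (12.8% of 47, beside 3.99% of all gene rows) and 1 higher (2.13%, beside 8.76%). With spike-in totals 3 members were past 2-fold, 0 lower and 3 higher, because that scaling moved the median log2 ratio of all gene rows to 0.54. That scaling shifts all genes alike apart from the prior count. With genes at 20 TPM or more 5 of 5 members had the same leading transcript, and at 1 TPM or more 21 of 23, with Notum as the added exception. Leaving out a library leaves no ratio between libraries and no comparison of leading transcripts, so those were not run. No paired analysis was possible because there is 1 group. Depth limits the members under 1 TPM: Wnt8b rested on 13 and 4 counts, and Dkk4 on 23 and 14.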
